A study of Arabidopsis thaliana with 4 samples.

Results

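The root transcriptome of the *arf7* mutant was compared with that of wild type (WT) under auxin. Both libraries that carry the auxin label were used, 1 from WT (accession Col, labelled Col-NAA, WT-NAA below) and 1 from *arf7* (labelled arf7-NAA), 2 of the 4 libraries of the series. The other 2 are the untreated pair, WT-Mock and *arf7*-Mock, and are given only beside the auxin pair. *ARF7* encodes an auxin response factor, a transcription factor that binds auxin response elements in promoters. NAA is a synthetic auxin, and per the methods of the study seedlings were treated with 10 μM for 4 hours. Seedlings were 8 days old and RNA came from roots. Growth was in the dark per the labels but in a greenhouse with a light period per the methods. The methods name *arf7* as a line of the Salk insertion collection, and the labels do not give the number of seedlings pooled. With 1 library per group no difference has a replicate check. The tests below compare the reads of 2 libraries, not the conditions, and their intervals cover counting error only.

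Auxin releases ARF proteins from Aux/IAA repressors, and in roots ARF7 acts with ARF19 to start lateral roots. Known steps downstream are the LBD transcription factors LBD16, LBD18 and LBD29, followed by cell wall and cuticle enzymes that let the new primordium pass the overlying tissues. The GH3 enzymes, which conjugate auxin to amino acids, form a feedback branch of the same response.

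WT-NAA held 7416200 uniquely assigned reads and *arf7*-NAA 7026529, and the untreated libraries held 7571027 (WT) and 7230317 (*arf7*). Of 25717 transcript models with reads in the auxin pair, the median model had 46 reads in WT-NAA and 43 in *arf7*-NAA. For the mutated gene *ARF7* (model AT5G20730.2), 12 reads were counted in WT-NAA and 3 in *arf7*-NAA, a log2 ratio of -1.92 (interval -4.39 to -0.03, exact binomial test, *P* = 0.036), and 5 and 8 reads in WT-Mock and *arf7*-Mock. These reads covered between 1.4% and 2.1% of the model and are too few to check the genotype labels. Reads shared by the models of a gene may have been left out of the counts, which was not tested. Its partner *ARF19* had 688 and 629 reads in the auxin pair. All 12 root markers of the list had reads, among them the endodermal regulator *SCR* (990 and 846 reads) and the β-glucosidase *PYK10* (144675 and 159098 reads). Leaf and shoot markers summed to 274 reads in WT-NAA and 716 in *arf7*-NAA, and to 379 in WT-Mock and 121 in *arf7*-Mock.

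The promoters of 5 auxin-related genes on which the results below turn are shown here, as the 250 bases before the annotated gene start in RefSeq's TAIR10.1, on the strand of the gene, with each TGTC core of the auxin response element and its reverse complement GACA in capitals. The first 4 genes were lower in *arf7*-NAA and *GH3.3* was higher.
AIR1, chr4:7438865-7439114, plus strand: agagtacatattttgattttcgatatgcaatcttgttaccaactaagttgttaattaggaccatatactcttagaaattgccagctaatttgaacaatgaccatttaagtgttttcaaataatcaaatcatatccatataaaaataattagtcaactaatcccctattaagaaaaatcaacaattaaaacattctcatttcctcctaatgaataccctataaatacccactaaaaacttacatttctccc
LBD29, chr3:21549573-21549822, minus strand: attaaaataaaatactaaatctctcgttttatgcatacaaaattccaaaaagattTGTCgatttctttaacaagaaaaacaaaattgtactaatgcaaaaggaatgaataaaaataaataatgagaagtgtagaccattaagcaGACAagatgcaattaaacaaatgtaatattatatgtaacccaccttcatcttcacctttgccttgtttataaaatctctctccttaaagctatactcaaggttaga
PRH1, chr2:8630689-8630938, minus strand: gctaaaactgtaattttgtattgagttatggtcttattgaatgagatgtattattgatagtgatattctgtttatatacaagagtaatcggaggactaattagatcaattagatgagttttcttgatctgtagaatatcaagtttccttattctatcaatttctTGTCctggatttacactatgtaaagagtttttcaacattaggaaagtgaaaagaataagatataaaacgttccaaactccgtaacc
GH3.5, chr4:13653329-13653578, plus strand: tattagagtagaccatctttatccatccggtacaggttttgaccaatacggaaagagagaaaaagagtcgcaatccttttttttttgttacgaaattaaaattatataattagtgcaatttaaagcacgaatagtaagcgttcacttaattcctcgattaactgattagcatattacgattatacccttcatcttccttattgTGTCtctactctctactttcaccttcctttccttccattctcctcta
GH3.3, chr2:9866563-9866812, minus strand: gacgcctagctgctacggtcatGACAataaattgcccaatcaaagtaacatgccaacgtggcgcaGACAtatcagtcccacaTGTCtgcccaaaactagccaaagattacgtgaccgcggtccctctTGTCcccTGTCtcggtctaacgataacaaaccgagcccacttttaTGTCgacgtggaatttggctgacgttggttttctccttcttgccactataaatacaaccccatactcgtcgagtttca

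In these windows *GH3.3* held 6 TGTC cores, *LBD29* held 2, *PRH1* and *GH3.5* held 1 each, and *AIR1* held 0. The longer element TGTCTC, which contains the core, was found on either strand once in *GH3.5* and once in *GH3.3*. Over the 33054 annotated genes, 75.2% of such windows held the core and 11.0% held TGTCTC. The core stood before 74.4% of the 180 genes called lower with a window and before 83.2% of the 131 called higher, and TGTCTC before 18 and 17 of them. The variant TGTCGG, which also contains the core and was searched on both strands, stood before 9 of the genes called lower (5%), before 13 of those called higher (9.92%) and before 4.56% of the 21714 genes with reads in the auxin pair. A match to these letters is a description and not a binding site.

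A model was called where the exact two-sided binomial test on its reads, given the library totals, had *P* under 0.0001 and the log2 ratio was at least 1 in either direction. Of the 25717 models, 316 were called (1.23%), 132 higher in *arf7*-NAA (0.513%) and 184 lower (0.715%). Taking for each gene the model with the most reads, 315 of 22489 genes were called (1.40%), 0.587% higher and 0.814% lower. For the untreated pair, the same genes gave 1.08% called, 0.488% higher and 0.59% lower, and these shares are the background of the untreated counts given below. The median log2 ratio over genes was 0.01. RPKM corrects the reads of a model for its length and for library size. Models called lower had a median of 18.9 RPKM in WT-NAA and those called higher a median of 9.87 RPKM in *arf7*-NAA. A count of 0 was set to 3 reads in a ratio, so that 20 of the models called higher, with 0 reads in WT-NAA, and 1 model called lower, with 0 reads in *arf7*-NAA, have ratios that are bounds.

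**Figure D1:**
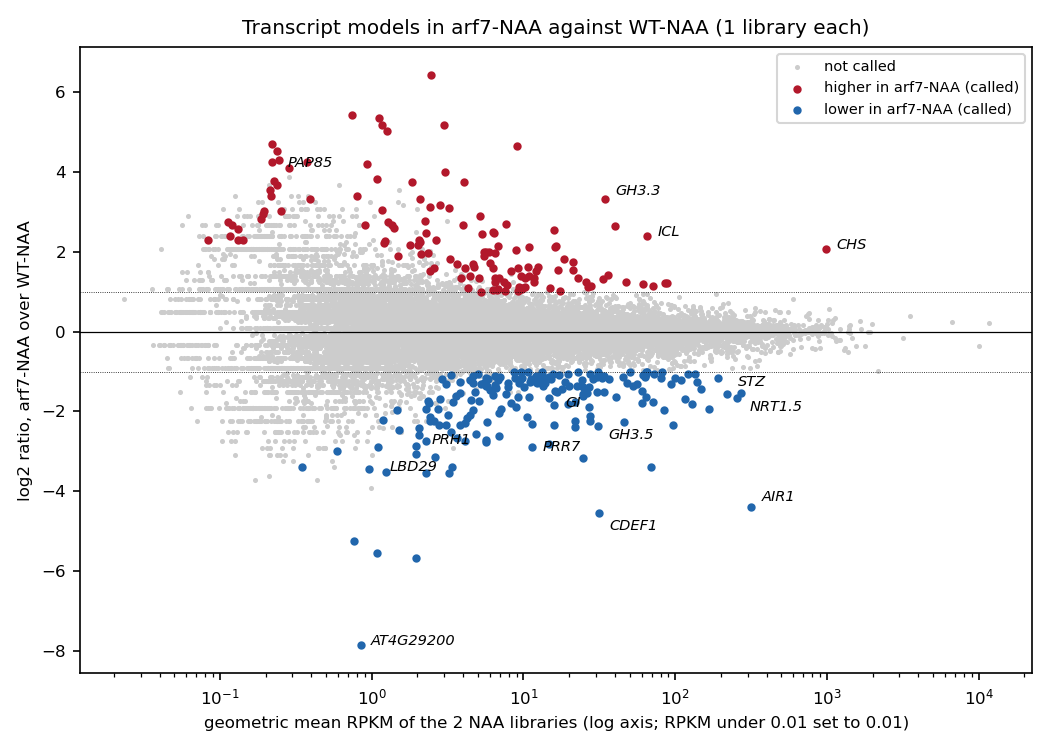
Log2 ratio of *arf7*-NAA over WT-NAA against the geometric mean RPKM of both libraries (log axis), 1 point per transcript model, with the 132 models called higher in red and the 184 called lower in blue. *AIR1* and *CDEF1* lie at -4.40 and -4.54 at high levels, *CHS* at 2.06 is the called model with the highest level, and the seed gene *PAP85*, with 0 reads in WT-NAA, is drawn at its bound.

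Those genes of the lateral root programme that were called were lower in *arf7*-NAA. Of the 31 genes of this list, all with reads, 6 were called lower (19.4% against 0.814% of all genes) and 0 higher, 25 were not called, and the median log2 ratio was -0.41. This list, like the others below, was chosen with earlier results of these data known. It includes *PRH1*, which the study selected from these same libraries, so the share is a description and not a test. *AIR1* (AT4G12550), an auxin-induced gene of the lipid-transfer protein type, had 7421 reads in WT-NAA and 334 in *arf7*-NAA, or 1448 against 68.8 RPKM. That is 21.1-fold lower (log2 ratio -4.40, interval -4.56 to -4.24). In the untreated pair *AIR1* had 240 RPKM in WT and 96.1 in *arf7*, so that WT-NAA stood above the other 3 libraries. *CDEF1* (AT4G30140), a cutinase of the GDSL family known from the cells over emerging lateral roots, showed 153 RPKM in WT-NAA and 6.55 in *arf7*-NAA. Its log2 ratio of -4.54 (interval -4.93 to -4.18) was the lowest where both libraries held 10 or more reads. Of the untreated libraries, in WT-Mock and *arf7*-Mock *CDEF1* was at 31.7 and 5.67 RPKM, and the *arf7* libraries were again below both WT libraries.

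*LBD29* (AT3G58190), a transcription factor of lateral root initiation, had 78 reads in WT-NAA and 7 in *arf7*-NAA, 10.6-fold lower (log2 ratio -3.40, interval -4.76 to -2.29). Untreated, it had 30 reads in WT and 4 in *arf7*. *LBD18* (AT2G45420) had 42 and 12 reads in the auxin pair (log2 ratio -1.73, interval -2.79 to -0.78, exact binomial test, *P* = 9.8e-05), just inside the threshold. *LBD16* (AT2G42430) had 165 and 117 reads and was not called (log2 ratio -0.42, interval -0.77 to -0.07, exact binomial test, *P* = 0.017). The interval of *LBD29* did not overlap that of *LBD16*. Over the whole LBD family, 3 of 27 members with reads were called lower, *LBD29*, *LBD18* and the hypoxia-responsive *LBD41* (193 and 91 reads), and 0 higher. The member with most reads, *LBD37*, a factor known from nitrogen signalling, had 3073 and 2275 reads and was not called.

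*PRH1* (AT2G19990, chr2:8629984-8630688, reverse strand, in the coordinates of the deposited tables), a CAP-domain protein related to the pathogenesis-related protein PR1, had 76 reads in WT-NAA and 11 in *arf7*-NAA. Its level was 14.5 against 2.22 RPKM (log2 ratio -2.71, interval -3.77 to -1.79, exact binomial test, *P* = 1.4e-12), and 4.68 against 0.785 RPKM in the untreated pair. A second CAP gene nearby, AT2G19970 (chr2:8623730-8624476, reverse strand), was at 39.2 and 5.53 RPKM in the auxin pair (log2 ratio -2.83, interval -3.44 to -2.26) and at 14.9 and 3.70 untreated. Both CAP genes had their highest level of the 4 libraries in WT-NAA. The kinase regulator *MAKR4* (AT2G39370), also of the lateral root list, had 144 and 37 reads (log2 ratio -1.88, interval -2.45 to -1.35).

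The GH3 family did not move as 1 group. Of 10 members with reads, 3 were called lower and 1 higher in *arf7*-NAA. *GH3.5* (AT4G27260) had 1165 reads in WT-NAA and 214 in *arf7*-NAA (69.9 against 13.6 RPKM, log2 ratio -2.37, interval -2.58 to -2.16), and 43.8 and 13.2 RPKM in WT-Mock and *arf7*-Mock. *GH3.6* (AT5G54510) had 726 and 238 reads (log2 ratio -1.53), and *GH3.2* (AT4G37390) had 1065 and 461 (log2 ratio -1.13). *GH3.3* (AT2G23170), which belongs to the same group of auxin-conjugating enzymes, went the opposite way, with 171 reads in WT-NAA and 1622 in *arf7*-NAA. It stood at 10.9 against 109 RPKM (log2 ratio 3.32), the highest ratio where both libraries held 10 or more reads. In the untreated pair *GH3.3* was at 5.86 RPKM in WT and 45.5 in *arf7*, and both *arf7* libraries were above both WT libraries. *GH3.17*, with 420 and 349 reads, *GH3.1*, with 47 and 37, and *GH3.10*, with 91 and 84, were not called.

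**Figure D2:**
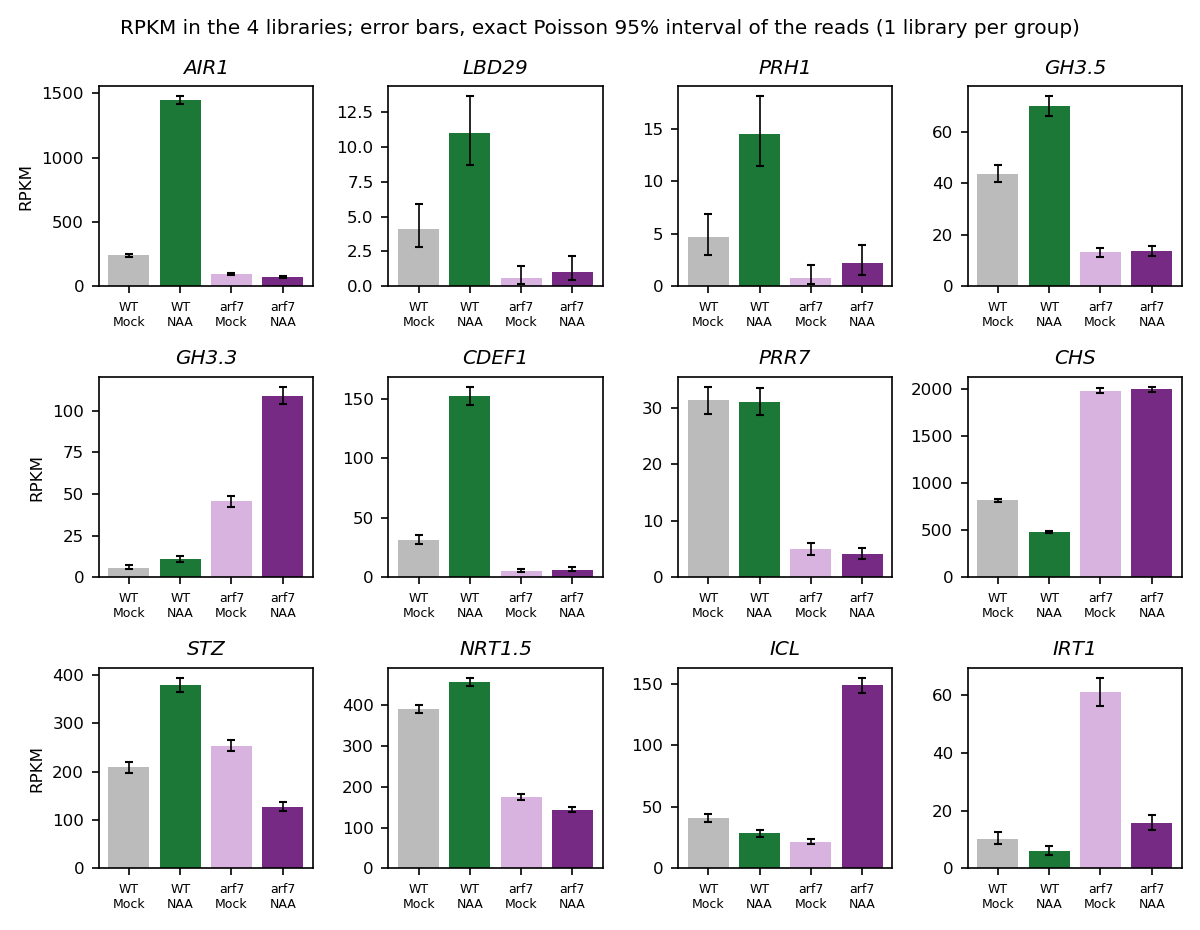
RPKM of 12 genes in the 4 libraries, each panel on its own linear axis from 0, with exact Poisson 95% intervals of the reads as error bars. *AIR1*, *LBD29*, *PRH1*, *GH3.5* and *CDEF1* have their tallest bar in WT-NAA, *GH3.3* and *ICL* in *arf7*-NAA, and *IRT1* in *arf7*-Mock (61.0 RPKM).

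Few genes of the other auxin lists (repressors, transporters and SAUR genes) were called. Several members had few reads in WT-NAA and *arf7*-NAA, such as *PIN7* (11 and 3), *PIN4* (6 and 8) and *IAA8* (7 and 3). For these the lack of a call says little. Of the Aux/IAA repressors, 1 of 28 with reads was called, *IAA10*, with 58 reads in WT-NAA and 18 in *arf7*-NAA (log2 ratio -1.61). *IAA16*, with the most reads (3175 and 2813), was not called, and the median of the list was -0.05. Of 14 auxin transporters with reads, 0 were called. *LAX3*, the influx carrier of cells overlying primordia, had 1096 and 784 reads (log2 ratio -0.41, interval -0.54 to -0.27, exact binomial test, *P* = 1.6e-09), a difference beyond counting error and under the threshold of 1. *ABCB4*, an auxin transporter gene with 4543 and 4507 reads, had a log2 ratio of 0.07. Of 44 SAUR genes, small auxin-induced proteins of cell growth, 1 was called lower, AT3G12830 (154 and 57 reads), and AT5G50760, with the most reads (748 and 373), had a log2 ratio of -0.93 and was not called.

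Cell wall and lipid enzymes that differed were mainly lower. Among GDSL lipases and esterases, 7 of 64 with reads were called lower (10.9%) and 0 higher. Beside *CDEF1* these included AT3G16370 (537 reads in WT-NAA and 108 in *arf7*-NAA, log2 ratio -2.24) and AT1G29660 (110 and 9 reads, log2 ratio -3.53). AT5G55050 (548 and 238 reads), *ARAB-1* (220 and 93) and AT5G45670 (150 and 71) were called lower too, and AT4G16220 (37 and 3 reads) had a log2 ratio of -3.55. The GDSL gene AT1G54000, with the most reads (11003 and 7799), was not called. Of 60 class III peroxidases, which oxidise phenolics in the cell wall, 5 were called lower (8.33%) and 0 higher. AT5G64120 was the most abundant of the 5, with 4379 reads in WT-NAA, 1434 in *arf7*-NAA, 2442 in WT-Mock and 1098 in *arf7*-Mock (log2 ratio under NAA -1.53, interval -1.62 to -1.45). The other 4 were AT2G38390 (686 and 265 reads), AT2G18150 (151 and 55), AT4G08780 (95 and 37) and AT5G06730 (95 and 35), with log2 ratios between -1.38 and -1.28. The peroxidase with the most reads, *PRXR1* (20705 and 15235), was not called.

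Of 138 pectin-modifying enzymes and inhibitors with reads, 2 were called lower, AT1G62770 (646 and 128 reads) and *PME44* (214 and 59 reads), a share of 1.45%. Of 31 XTH genes 1 was called, *XTH26*, a xyloglucan enzyme of root hairs, with 29 and 5 reads. Of 22 extensins and extensin-like wall proteins with reads, 1 was called higher (4.55%) and 0 lower. The called gene, AT1G26250, had 253 and 602 reads (log2 ratio 1.33), and 926 and 607 untreated. The extensin with the most reads, *EXT3* (139903 and 103581), was not called. Of 26 expansins, 1 was called in each direction, *EXPB3* higher (43 and 103 reads) and *EXLB1* lower (70 and 27 reads). *EXPA8*, wall-loosening like the other expansins, had 294 and 184 reads (log2 ratio -0.60, interval -0.87 to -0.33), *EXPA14* had 540 and 700 reads (log2 ratio 0.45), and *EXPA3* (45 and 54) and *EXPA11* (279 and 253) had intervals that include 0. Of the abscission receptor genes, *HAE* had 35 and 40 reads and *HSL2* 231 and 207, with intervals that include 0, and their ligand gene *IDA* had 1 and 0 reads. The Casparian strip list, genes of the endodermal barrier, had 0 of 12 called, with a median of -0.47 under NAA and 0.05 untreated. Its scaffold gene *CASP1* had 2398 reads in WT-NAA, 1458 in *arf7*-NAA, 1380 in WT-Mock and 1477 in *arf7*-Mock.

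Genes of the circadian clock were lower in *arf7* with and without NAA where they were called. Of 21 clock genes with reads, 3 were called lower (14.3%) and 0 higher, and the same number were called lower untreated. *PRR7* (AT5G02810), a transcriptional repressor of the clock, was at 31.0 RPKM in WT-NAA and 31.3 in WT-Mock, and at 4.17 and 4.93 in *arf7*-NAA and *arf7*-Mock. Its log2 ratio under NAA was -2.89 (interval -3.24 to -2.56). *GI* (AT1G22770), a scaffold protein of the clock and of flowering time, was at 57.1 and 13.2 RPKM in the auxin pair (log2 ratio -2.11) and at 40.6 and 14.3 untreated. *FKF1*, a blue light receptor that binds GI, had 264 and 110 reads (log2 ratio -1.19). For all 3 genes both *arf7* libraries were below both WT libraries, which describes genes called in both pairs. The share of all genes that separate in this way was not counted. The other 18 were not called, among them *TOC1*, with the most reads (2190 and 1679, log2 ratio -0.31), *GRP7* (430 and 236, log2 ratio -0.79), *CHE* (164 and 91, log2 ratio -0.77) and *ELF3* (1245 and 1221, log2 ratio 0.05), and the median of the list was -0.49. The time of day at which each library was harvested is not given in the labels, and its part in these differences was not tested.

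Those regulators of touch, wound and rapid stress responses that were called were lower in *arf7*-NAA. Of 27 genes with reads 9 were called lower (33.3%) and 0 higher, with a median log2 ratio of -0.87. Untreated, 0 were called lower and 2 higher, with a median of 0.34. *STZ* (AT1G27730), a zinc finger repressor induced by many stresses, had 2627 reads in WT-NAA and 835 in *arf7*-NAA (380 against 127 RPKM, log2 ratio -1.58, interval -1.69 to -1.46), and 209 and 254 RPKM in WT-Mock and *arf7*-Mock. The ERF factor gene *RRTF1* (AT4G34410) was at 22.2 and 5.04 RPKM in the auxin pair (log2 ratio -2.14, interval -2.62 to -1.69) and at 5.82 and 17.5 untreated (log2 ratio 1.59). *WRKY40*, a repressor of defence genes, had 460 and 152 reads under NAA and 264 and 491 untreated. *ZAT6*, *ERF5*, *ERF6*, *ERF13*, *ZAT11* and the calmodulin-like *CML37* make up the rest of the 9, with log2 ratios from -2.35 (*ERF13*) to -1.05 (*ZAT6*). *WRKY33*, with the most reads (2361 and 1621), was not called. For *STZ* and *WRKY40* the level in *arf7*-NAA was the lowest of the 4 libraries. *RRTF1* in *arf7*-NAA was near its level in WT-Mock, with 49 reads against 61.

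In the AP2/ERF family 6 of 84 genes with reads were called lower (7.14%) and 1 higher, and *ERF5*, *ERF6* and *ERF13* among the 6 are also in the list of touch and stress regulators. In the untreated pair 1 member was called lower and 3 higher. AT5G51190, an AP2/ERF gene, had 1489 and 403 reads (log2 ratio -1.81), and *ORA47* (AT1G74930), an activator of jasmonate synthesis genes, had 116 and 18 (log2 ratio -2.61, interval -3.41 to -1.89). AT1G19210, another ERF gene, had 66 and 13 reads (log2 ratio -2.27), and the 1 member called higher was AT2G20880 (26 and 65 reads). *ACS6*, a stress-regulated enzyme of ethylene synthesis, had 1152 and 439 reads (log2 ratio -1.31) and was the only called gene among 12 of ethylene synthesis. Untreated, *ACS6* had 582 reads in WT and 929 in *arf7* (log2 ratio 0.74) and was not called. In the jasmonate list *ORA47* was the only called gene of 23, and *MYC2*, with 2595 and 1485 reads, was not called (log2 ratio -0.73). The untreated log2 ratios were 1.34 for *ORA47*, which was called higher, and 0.44 for *MYC2*, which was not called.

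Most of the flavonoid genes that were called were higher in *arf7*, with and without NAA. The pathway makes flavonols and anthocyanins from phenylpropanoids, starting with chalcone synthase. Of 20 flavonoid genes with reads, 6 were called higher (30.0% against 0.587% of all genes) and 1 lower, with a median log2 ratio of 1.26, and untreated 7 were called higher and 1 lower. *CHS* (AT5G13930), chalcone synthase, had 5307 reads in WT-NAA, 20945 in *arf7*-NAA, 9218 in WT-Mock and 21387 in *arf7*-Mock, and its log2 ratio under NAA was 2.06. *CHI* (AT3G55120), chalcone isomerase, was at 15.9 and 99.6 RPKM in the auxin pair (log2 ratio 2.64, interval 2.35 to 2.95) and at 40.3 and 153 untreated. *F3'H* (5.22 and 22.6 RPKM) and *FLS1* (2.63 and 14.9 RPKM), which hydroxylate flavonoids and make flavonols, had log2 ratios of 2.11 and 2.51. *MYB12*, the activator of flavonol genes, had 156 and 373 reads (log2 ratio 1.34), and *UGT78D2*, which glycosylates flavonoids, had 213 and 446 (log2 ratio 1.14). The called gene in the other direction was *MYBL2* (AT1G71030), a MYB repressor of the pathway, at 9.16 RPKM in WT-NAA and 1.44 in *arf7*-NAA (log2 ratio -2.67, interval -3.79 to -1.70) and at 12.2 and 1.40 untreated. For *CHS*, *CHI*, *MYB12* and *MYBL2* the pair of *arf7* libraries did not overlap the pair of WT libraries. These genes were chosen from those called in both pairs, and the share over all genes was not counted, so this is a description.

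UDP-glycosyltransferases, which attach sugars to small molecules, had 8 of 120 genes called higher (6.67%) and 1 lower. The untreated pair also had 8 called higher and 1 lower. *UGT84A1* (AT4G15480) and *UGT84A2* (AT3G21560), which glucosylate hydroxycinnamic acids, had 24 and 170 reads (log2 ratio 2.90) and 292 and 737 reads (log2 ratio 1.41). Their untreated log2 ratios were 2.51 and 1.47. AT2G22590 had 2 reads in WT-NAA and 77 in *arf7*-NAA, a ratio of 40.6 with a wide interval (log2 3.44 to 8.42), and 23 and 129 reads untreated. AT4G27560 (54 and 122 reads) and AT5G17040 (10 and 45 reads) were called higher as well, and AT3G46650 (87 and 33 reads) was the member called lower. The family member with the most reads, AT3G11340 (2994 and 3370), was not called. Earlier phenylpropanoid genes were not called. Among them *C4H*, the second enzyme of the pathway, had 5025 and 6914 reads (log2 ratio 0.54), and *PAL1* (4507 and 6223 reads) and *PAL2* (2667 and 3809 reads) of the first step also had more reads in *arf7*-NAA, under the threshold of 1. Untreated, the log2 ratios of *C4H*, *PAL1* and *PAL2* were 0.48, 0.68 and 0.70. *F5H*, an enzyme of syringyl lignin, was called lower with 205 and 97 reads.

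Some seed genes of low count had most of their reads in *arf7*-NAA. LEA proteins and dehydrins protect cells in drying seeds and stressed tissues. Of 42 such genes with reads, 11 were called higher (26.2%) and 0 lower, with a median of 0.81, and untreated 0 were called. AT3G15670 (LEA family) had 2 reads in WT-NAA, 162 in *arf7*-NAA, 10 in WT-Mock and 13 in *arf7*-Mock (log2 ratio 6.42, interval 4.54 to 9.48). AT3G02480 had 6 and 142 reads in the auxin pair (log2 ratio 4.64), and AT3G17520 had 4 and 138 (log2 ratio 5.19). AT2G42560 had 0 and 74 reads and was at least 26.0-fold higher. *LEA4-5* (7 and 57 reads) and *LEA18* (4 and 51 reads, log2 ratio 3.75) followed. The LEA gene with the most reads, AT1G54410 (8190 and 5816), was not called, and the list as a whole summed to 17501 reads in WT-NAA, 17016 in *arf7*-NAA, 18550 in WT-Mock and 17345 in *arf7*-Mock. Of the seed storage and oil body list, 11 of 16 genes had reads and 2 were called higher, the oleosins *OLEO5* (5 and 41 reads) and *OLEO2* (0 and 23 reads, at least 8.09-fold higher), whereas *OLEO4* had 6 and 1 reads and *OLEO3* 3 and 3. The seed storage proteins *SESA1* to *SESA5* had between 1 and 7 reads each in *arf7*-NAA, and *SESA1*, *SESA2*, *SESA3* and *SESA5* had 0 in WT-NAA. The whole list summed to 15 reads in WT-NAA, 91 in *arf7*-NAA, 17 in WT-Mock and 22 in *arf7*-Mock.

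Also at 0 reads in WT-NAA were *PAP85* (AT3G22640), a vicilin-like seed protein, with 66 reads in *arf7*-NAA (at least 23.2-fold higher), and the papain family protease AT3G54940.2, with 56 (at least 19.7-fold higher). Both are the genes with the most *arf7*-NAA reads among those absent from WT-NAA, together with AT2G42560. In WT-Mock and *arf7*-Mock these 3 genes had between 0 and 2 reads. *ICL* (AT3G21720), isocitrate lyase of the glyoxylate cycle that turns seed oil into sugar, had 457 reads in WT-NAA, 2274 in *arf7*-NAA, 671 in WT-Mock and 342 in *arf7*-Mock (log2 ratio under NAA 2.39, interval 2.25 to 2.54). It was the only called gene among 16 of the glyoxylate cycle and β-oxidation, where *KAT2*, with the most reads (6024 and 6229), had a log2 ratio of 0.13 and *MLS*, the partner enzyme of ICL, had 3 and 4 reads. The summed reads of leaf and shoot markers were higher in *arf7*-NAA too, as given next, and the part of seed or shoot material in these differences was not tested.

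Most of the photosynthesis genes that were called were higher in *arf7*-NAA, or lower in *arf7*-Mock, than in WT. Of 84 genes of the photosystems, light harvesting and Rubisco with reads, 13 were called higher (15.5%) and 1 lower under NAA, with a median of 0.56. Untreated, 2 were called higher and 11 lower, with a median of -0.72. *LHCB1.3* (AT1G29930), a light-harvesting protein, had 238 reads in WT-NAA, 530 in *arf7*-NAA, 317 in WT-Mock and 81 in *arf7*-Mock (log2 ratio 1.23 under NAA and -1.90 untreated). *LHB1B2* (AT2G34420), a closely related light-harvesting gene, was the called gene in the other direction, with 308 and 111 reads under NAA and 380 and 55 untreated. Only uniquely assigned reads were counted, and the part of reads that match both genes was not tested. *RBCS1A*, a small subunit of Rubisco, had 12 and 72 reads (log2 ratio 2.66), and *RBCS2B* had 6 and 51. The early light-induced *ELIP1* (65 and 216 reads) and *ELIP2* (18 and 111 reads) were higher in *arf7* in both pairs. The photosystem genes *PSBY* (43 and 122 reads), *PSAG* (44 and 99 reads) and *LHCA2* (52 and 107 reads) were higher under NAA and had lower counts in *arf7* than in WT untreated (67 and 28, 50 and 29, and 86 and 26 reads). *PSB29*, with the most reads of the list (515 and 504), was even.

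Of the 12 leaf and shoot markers, 10 had reads and 3 were called higher, *LHCB1.3*, *RBCS1A* and *RBCS2B*, and these 3 are also in the photosynthesis list. The meristem gene *STM* had 1 and 0 reads, the stomatal gene *TMM* 2 and 10, and the list summed to between 121 and 716 reads in the 4 libraries. The 12 root markers summed to between 151108 and 168760 reads, of which *PYK10* alone held 144675 of 151108 in WT-NAA and 159098 of 164191 in *arf7*-NAA, and 0 of them were called. The markers *GL2* (6 and 2 reads), *APL* (5 and 3) and *WOX5* (12 and 12) had few reads. Summed levels were 99.6 RPKM for the shoot list and 13009 for the root list in *arf7*-NAA. In RNA of whole roots, fewer cells of a type and less RNA per cell cannot be told apart, and this holds for each list here.

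**Figure D3:**
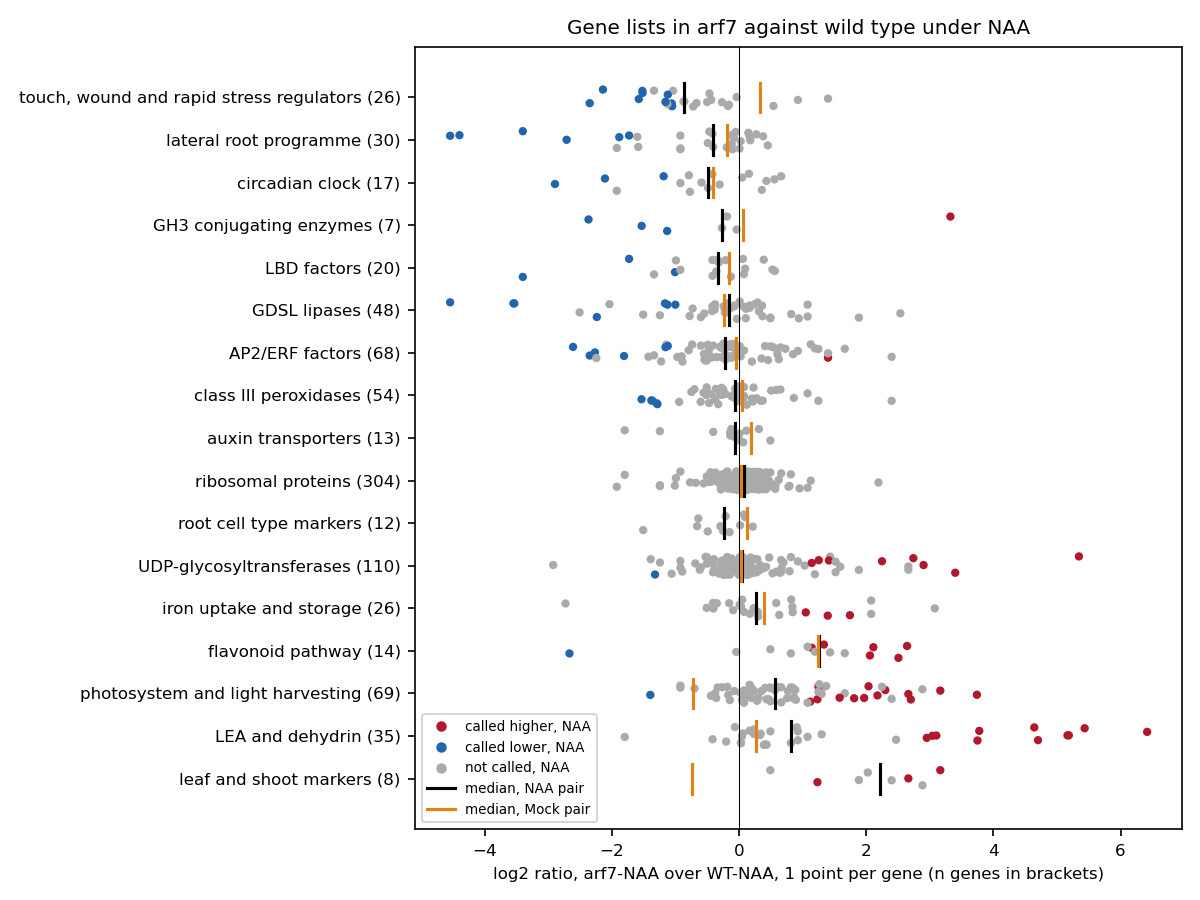
Log2 ratios of *arf7*-NAA over WT-NAA for the members of 17 gene lists, 1 point per gene, with genes called higher in red and lower in blue, the median of the NAA pair in black and that of the Mock pair in orange. Genes with 0 reads in 1 library are drawn at their bound. The black and orange bars lie on opposite sides of 0 for the touch and stress list (-0.87 and 0.34) and for the photosynthesis list (0.56 and -0.72), and close together for the flavonoid list (1.26 and 1.25) and the clock list (-0.49 and -0.41).

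Iron uptake genes called in a pair were higher in *arf7* in that pair. The direction was not shared by all of them, since *bHLH101*, called higher untreated (35 and 79 reads), had 47 and 40 reads under NAA. Of 28 with reads, 3 were called higher under NAA (10.7%) and 0 lower, and 7 were called higher untreated. *IRT1* (AT4G19690.2), the main iron transporter of the root epidermis, had 61 reads in WT-NAA, 152 in *arf7*-NAA, 107 in WT-Mock and 607 in *arf7*-Mock, with log2 ratios of 1.40 (interval 0.96 to 1.85) under NAA and 2.57 (interval 2.27 to 2.88) untreated. *FRO2*, the iron reductase that works with IRT1, had 78 and 153 reads under NAA and 130 and 530 untreated, and *NAS4*, which makes the iron chelator nicotianamine, had 98 and 311 reads under NAA (log2 ratio 1.74). The iron-related transporter *PDR9*, with the most reads (7820 and 7457), was even. Nitrate genes went the other way through 1 gene, *NRT1.5* (AT1G32450), which loads nitrate into the xylem. It had 458 RPKM in WT-NAA and 144 in *arf7*-NAA (log2 ratio -1.67, interval -1.74 to -1.60), and 391 and 175 untreated. The other 11 nitrate genes with reads were not called, among them the nitrate reductase *NIA2*, with 5927 and 4164 reads (log2 ratio -0.43).

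Several large groups had 0 or few called genes. Of 321 genes whose annotation names a ribosomal protein, 0 were called, with a median of 0.08. There were also 0 calls among 43 histones, 17 cell cycle genes, 19 aquaporins, 15 suberin genes, 16 cytokinin genes, 13 sugar starvation genes and 21 cysteine-rich receptor-like kinases. Their members with the most reads differed by at most 0.60 in log2 ratio, the value of the suberin enzyme *CYP86A1* (2122 and 3046 reads), and *TIP1;2*, an aquaporin with 18022 and 13250 reads, had -0.37. Some of these lists leaned to 1 side under the threshold. Ratios under NAA were below 0 for 14 of 18 aquaporins and above 0 for 4. They were below 0 for 10 of 14 cytokinin genes and above 0 for 10 of 15 suberin genes. Cytochrome P450 genes had 2 of 194 called in each direction, a share near that of all genes. The P450 genes were *F3'H* and *CYP71A19* (98 and 235 reads) in the higher and *F5H* and AT5G04330 (95 and 43 reads) in the lower direction. NAC factors had 2 of 81 called higher (2.47%), *ANAC003* (99 and 275 reads) and *ANAC004* (19 and 54 reads), and 0 lower. For bHLH factors 1 of 106 was called in each direction (0.943%), *HEC1* higher (7 and 30 reads) and AT5G65320 lower (75 and 14 reads). WRKY factors had 2 of 62 lower (3.23%), *WRKY40* and *WRKY45* (121 and 53 reads). MYB factors had 4 of 116 lower (3.45%), among them *MYB77* (185 and 80 reads), a factor known from auxin responses, and 1 higher (0.862%). Over all genes 0.587% were called higher and 0.814% lower. The share called higher of NAC factors and the shares called lower of WRKY and MYB factors stood above these, with 2, 2 and 4 genes. Of 89 heat shock genes 2 were called higher under NAA (2.25%), *HSFA6B* (81 and 237 reads) and *HSP17.6A* (17 and 49 reads), whereas 13 were called higher in the untreated pair. Of 51 glutathione S-transferases 1 was called in each direction (1.96%), *GST30* higher (51 and 139 reads) and *GSTF7* lower (638 and 300 reads). Of 67 chitinases, PR proteins and defensins 3 were called lower (4.48%), *PRH1*, AT2G19970 and the chitinase AT2G43590 (1561 and 706 reads). In the indole glucosinolate list of 20 genes 1 was called in each direction (5%), the methyltransferase *IGMT2* higher (47 and 93 reads) and *MYB122* lower (67 and 15 reads).

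Further large differences lay outside the groups above. AT4G29200, annotated as related to β-galactosidase, had 731 reads in WT-NAA, 0 in *arf7*-NAA, 685 in WT-Mock and 1 in *arf7*-Mock, so that it was at least 231-fold lower under NAA. The next genes with 0 reads in *arf7*-NAA, *QQS* and AT2G34010, had 12 and 11 reads in WT-NAA and were not called. Of 66 genes of the lipid-transfer and 2S albumin superfamily 3 were called lower (4.55%) and 2 higher (3.03%), AT5G01870 (917 and 83 reads, log2 ratio -3.39, interval -3.73 to -3.06), AT4G12545 (1178 and 415 reads, log2 ratio -1.43) and AT1G62500 (73 and 30 reads, log2 ratio -1.21) lower and *LTP1* (12 and 62 reads, log2 ratio 2.45) and *LTP3* (15 and 57 reads) higher. The ABC transporter gene *ABCB14* had 121 and 10 reads (log2 ratio -3.52), the glycine-rich protein gene *GRP-5* 433 and 46 (log2 ratio -3.16) and *ABCG39* 101 and 13 (log2 ratio -2.88). AT3G23450 (194 and 27 reads) and AT2G33850 (78 and 11 reads), both of unknown function, were the remaining genes among the 10 largest decreases. Among the 10 largest increases were AT5G62210, annotated as an embryo-specific protein (43 and 239 reads, log2 ratio 2.55), and the methionine sulfoxide reductase *MSRB6* (17 and 89 reads, log2 ratio 2.47), and both were also higher in *arf7* untreated.

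The genotype difference under NAA was partly that of the untreated pair. Without NAA, 235 models were called between *arf7*-Mock and WT-Mock (0.91% of 25836), 105 higher (0.406%) and 130 lower (0.503%). In both pairs 78 models were called in the same direction, 28 higher and 50 lower, which is 24.7% of the models called under NAA and 33.2% of those called untreated, and 12 were called in opposite directions. The remaining 226 models called under NAA were not called untreated, which is not a test that the genotype difference itself changed with NAA. Of the 184 models called lower in *arf7*-NAA, 157 had their highest RPKM of the 4 libraries in WT-NAA. Of the 132 called higher, 96 had theirs in *arf7*-NAA and 29 in *arf7*-Mock. Both sets were chosen by their difference in the NAA pair, which favours these maxima, so the counts are a description.

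**Figure D4:**
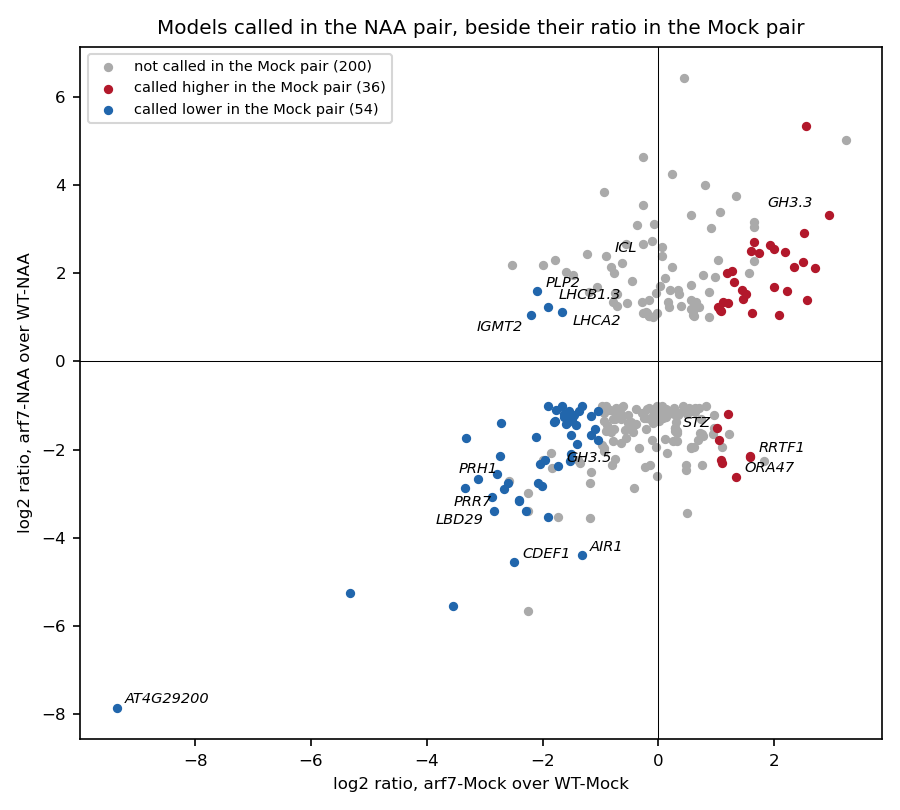
Log2 ratio of *arf7* over WT under NAA against the same ratio in the Mock pair, for the 290 models that were called under NAA and have a ratio in both pairs, coloured by their call in the Mock pair. *AIR1*, *CDEF1*, *LBD29*, *PRR7* and AT4G29200 lie in the lower left, *GH3.3* in the upper right, and *RRTF1* and *ORA47* in the lower right, where the direction differs between the pairs.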

How the data were processed

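Root RNA of 4 libraries, 1 per group, was sequenced, and samples were grouped by their titles. For each library the authors deposited, per transcript model, the count of uniquely assigned reads, the RPKM and the percent of its length that reads covered. The aligner and counting tool are not given in the sources used here. The comparison tables of the authors, which hold ratios, p-values and false discovery rates, were not used, and their 16 per-sample columns were left out. Counts, lengths and library totals gave back the deposited RPKM. Table coordinates overlapped the TAIR10.1 gene of the same locus tag for 99.97% of 27121 models.

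From the counts, log2 ratios, Clopper-Pearson 95% intervals and exact two-sided binomial tests given library totals were computed with SciPy 1.17.1 (Python 3.11.15). No ratio was given where both counts were at most 3. A gene was represented by whichever model had most reads in the auxin pair. Reads with no molecular identifiers are not independent molecules, so intervals cover counting error only.

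The genes named are the 10 largest called changes in each direction where each library held 10 reads or more, *ARF7*, up to 6 called members per list and direction with the member holding the most reads, 3 genes per direction with 0 reads in 1 library, and the genes the study names. Further members of the lists (such as *ARF19*, *CASP1*, *ELF3*, *MLS*, *ABCB4* and the minor GH3 and seed genes) were named after their values were seen. Members and the 48 lists were chosen with earlier results of these data known. Alternatives, run in R 4.3.3 and Python, were scaling by TMM (edgeR 4.0.16) or by size factors (DESeq2 1.42.0), 1 RPKM as pseudocount or as minimum level, adjustment of p by Benjamini-Hochberg to 0.001, an assumed variation between replicates in the exact test of edgeR, and reads summed per gene.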

Additional observations from a re-analysis of the deposited data

Results flagged for a closer look

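For 12 transcript models the genotype difference had opposite directions under NAA and Mock, each past the threshold in both pairs. With 1 library per group the difference between the pairs was not tested. Of these, 8 were lower in *arf7* under NAA and higher in *arf7* without it. They were the regulators *ORA47* (log2 ratio -2.61 under NAA and 1.34 untreated) and *RRTF1* (-2.14 and 1.59), the small peptide gene *DVL10* (-2.24 and 1.08), the Nudix hydrolase gene *ATNUDT21* (-1.77 and 1.04), AT2G30020 (-1.50 and 1.01), AT3G02840 (-2.16 and 1.58), AT1G50750 (-2.31, with 133 and 273 reads untreated) and AT1G07350 (-1.19 and 1.21). The most abundant of them, AT2G30020, had 1051 reads in WT-NAA, 352 in *arf7*-NAA, 354 in WT-Mock and 683 in *arf7*-Mock.

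The other 4 were higher in *arf7*-NAA and lower in *arf7*-Mock. They were the light-harvesting genes *LHCB1.3* (log2 ratio 1.23 under NAA and -1.90 untreated) and *LHCA2* (1.12 and -1.66), the lipid acyl hydrolase gene *PLP2* (1.60 and -2.09) and the indole glucosinolate methyltransferase gene *IGMT2* (1.06 and -2.20). *IGMT2* had 639 reads in WT-Mock and between 47 and 133 in the other 3 libraries.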

How the results depend on the processing

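The count of 316 called models (132 higher, 184 lower) stayed within 1.5 times under both scalings, the pseudocount, the minimum level, the adjusted p and reads summed per gene. It depended on the error assumed between libraries. When replicates were assumed to vary by a biological coefficient of 0.2, edgeR's exact test at the same *P* called 96 models, 48 higher and 48 lower, and with 0.4 it called 17, of which 12 were higher and 5 lower. At 0.2 *AIR1*, *CDEF1*, *LBD29*, *PRH1*, *GH3.5*, *GH3.3*, *PRR7*, *GI*, *NRT1.5*, *CHS*, *CHI*, *ICL* and *RRTF1* were still called, and *LBD18*, *GH3.2*, *GH3.6*, *STZ*, *WRKY40*, *IRT1*, *FRO2* and *LHCB1.3* were not. With a pseudocount of 1 RPKM the call for *F5H* among phenylpropanoid genes and both lower calls among P450 genes were lost, leaving 0 lower calls in each list. No called ratio changed sign under TMM, DESeq2 or the pseudocount, and of 316 called models 2, 8 and 33 lost their call. No paired analysis was possible because each group has 1 library. Precision is limited by depth for models with few reads, such as *ARF7*, and leaving out a library would leave no pair.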

Other observations

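Those genes of the cuticle and epidermis that were called were lower in *arf7* in both pairs. The list was assembled after the values were seen, so its count is a description. Of 32 such genes with reads, 9 were called lower under NAA (28.1%, against 0.814% of all genes). Untreated, 8 were called lower, against 0.59% of all genes, and 0 were called higher in either pair. The medians were -0.56 under NAA and -0.81 untreated, and 11 of 30 ratios under NAA were above 0. *PDF1*, a marker of the outermost cell layer, had 1992 reads in WT-NAA, 375 in *arf7*-NAA, 954 in WT-Mock and 221 in *arf7*-Mock. Its regulator *PDF2*, a homeodomain protein, had 214 and 61 reads under NAA and 126 and 12 untreated. *KCS16* (156 and 25 reads), *KCS12* (85 and 12 reads) and *MYB94* (90 and 26 reads), which elongate wax precursors or activate wax genes, and the lipid exporter *ABCG11* (154 and 68 reads), *LTPG1* (544 and 235 reads) and *BDG1* (112 and 25 reads) were called lower under NAA as well. *KCR1*, with the most reads (2087 and 2013), was even.

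Genes usually induced by auxin differed in how far WT-NAA stood from WT-Mock, which was not tested. Treated and untreated WT gave 7421 against 1255 reads for *AIR1*, 1165 against 744 for *GH3.5* and 78 against 30 for *LBD29*. *IAA19* had between 38 and 41 reads in all 4 libraries, *IAA5* had 0 in WT-NAA against 5 untreated, and *LBD16* had 165 against 132. *GH3.3* had 94 and 171 reads in WT and 697 and 1622 in *arf7*. These genes were chosen after their values were seen, and the dose is known only from the methods of the study, since the comparison tables tag the NAA libraries with a code that no source explains.

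Among models outside the lists, *MES17*, a methyl esterase, had 107 reads in WT-NAA and 2 in *arf7*-NAA, and AT3G20760, a subunit of a DNA repair complex, had 57 and 5 reads under NAA and 52 and 70 untreated. Both were chosen after their values were seen.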
